A study of Drosophila melanogaster with 4 samples.

Results

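Many *Drosophila* protein-coding genes are still known only by an annotation number, a symbol made of CG and digits. This report describes 86 such genes whose RNA declined with age in *scrib* mutant wing discs. They were selected on their measured levels in the same 4 libraries described here. A gene was a member if it was listed at all 4 ages, had a mean of at least 0.1 unique molecular identifiers (UMIs, 1 for each captured RNA molecule) per 10000 UMIs of a cell on day 4, was lower on day 8 than on day 5 and on day 14 than on day 8, and had a log2 ratio of day 14 over day 4 of -0.8 or less. *CG13117* and *CG17124* were left out by the rule. Of 7845 genes listed at all 4 ages, 2857 had a CG number as symbol, 1652 of these were over the day 4 minimum, and 86 met the rule. The fall of a member from day 4 to day 14 is therefore fixed by its choice. What the rule did not use is the kind of cell in which a member was found, and what is known of its product.

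Wing imaginal discs, from which the adult wing develops, came from larvae of genotype scrib-/- FRT82B, from parents of strain scrib[1]FRT82B/TM6B, raised at 25 degrees and dissected 4, 5, 8 or 14 days after egg laying. All 4 groups share this genotype, and no control discs were analysed here. Loss of *scrib*, an apicobasal polarity gene, lets the disc overgrow into a tumor during a prolonged larval life. Each age was 1 library of dissociated cells made by the 10x method, so no test between ages was possible, and age and library cannot be told apart. A wing disc holds an epithelium with pouch, hinge and notum regions, and under the notum a layer of myoblasts, the precursors of the flight muscles. In *scrib* mutant discs some epithelial cells activate JNK signaling, a stress pathway with the matrix metalloproteinase gene *Mmp1* among its known targets.

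In the order of age there were 3785, 6457, 3104 and 1110 cells, with a median of 23326, 19258, 18299 and 19222 UMIs per cell. Between 5 and 34 cell barcodes were shared by any pair of libraries. Cells were clustered within each library without the 86 members. Myoblast-like cells made up 4.28%, 6.13%, 6.80% and 3.78% of cells in the order of age. Clusters called disc-epithelium-like made up 95.7%, 89.8%, 93.2% and 54.1%, and the remainder were unnamed (42.1% of cells on day 14). None of 6 hemocyte and none of 4 fat body markers was listed at any age, whereas the summed level of the 4 listed of 5 tracheal markers was 0.169, 0.283, 1.53 and 3.78 per 10000. Their part in the results below was not tested. The myoblast marker *twi* had a UMI in 92.0% of myoblast-like and 0.386% of other cells on day 4 (median depth 16220 and 23714 UMIs), and in 95.2% and 2.53% on day 14 (17532 and 19240 UMIs), which sets the background for shares of cells.

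The members spanned a wide range of levels. Their day 4 means ran from 0.102 to 14.96 per 10000 with a median of 0.355, and 20 of 86 were at 1 or more. Together they made 88.2, 88.7, 62.5 and 42.9 UMIs per 10000 in the order of age, of which *CG10527* alone made 14.96, 15.6, 10.6 and 6.09. The median log2 ratio of day 14 over day 4 was -0.97, a level 1.96-fold lower, and the range was -3.16 to -0.80. Over all 4887 genes above the same day 4 minimum the median was 0.24, so the members' median lay 1.22 below the typical gene. In all, 42 members were at least 2-fold lower and 8 at least 4-fold lower on day 14. The 95% counting half-width of the log2 ratio was 0.03 to 0.36 (widest for *CG6321*), and it covers counting error only, not differences between animals or preparations. The rule took 5.21% of the CG-number genes over the minimum. The same rule took 96 of 3233 other genes, or 2.97%. Scaling each cell without its ribosomal protein RNA let 163 CG genes meet the rule in place of 86, and put the members' median at -1.15.

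Before day 5 the members had no common direction. The level on day 5 was higher than on day 4 for 41 of 86 members, where 53.0% of all genes over the minimum were higher, and the median step was -0.02. The rule bears on both levels, so nothing is read from this count. With counting error taken into account, 28 members were higher and 36 lower on day 5. The median step was -0.49 from day 5 to day 8 and -0.45 from day 8 to day 14, values that the rule bears on. By their largest log2 step the members fell into 2 groups of similar size. For 45 it was between day 5 and day 8, and for 40 between day 8 and day 14. *CG4186* alone had its largest step before day 5. Of the 96 other genes that met the rule, 42.7% had the largest step from day 5 to day 8 and 57.3% from day 8 to day 14. The margin between the largest and the next step was beyond counting error for 23 of 45 and 28 of 40 members, so the others are not firmly placed. That error treats the steps as independent, although neighbouring steps share a library. It is too small for such steps, so both counts are upper limits. Divided by the days each step spans, the steps were largest from day 4 to day 5 for 18 members, from day 5 to day 8 for 54 and from day 8 to day 14 for 14.

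**Figure D1:**
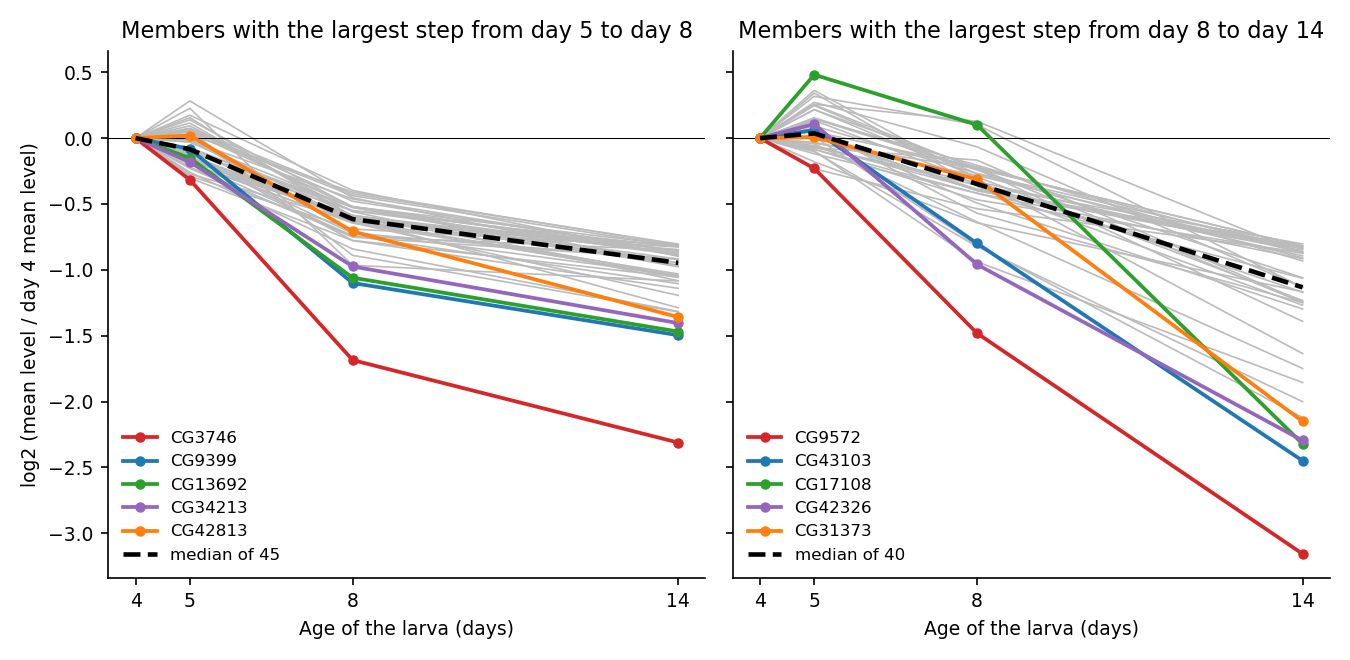
Mean level of each member relative to its day 4 level (log2, y axis) against the age of the larva in days (x axis), for the 45 members with the largest step from day 5 to day 8 (left) and the 40 with the largest step from day 8 to day 14 (right). Each grey line is 1 gene, the 5 lowest on day 14 are coloured and named, and the dashed line is the group median; the medians stay near 0 on day 5, and the deepest falls, such as *CG9572*, *CG43103* and *CG17108*, are on the right.

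Members with the largest step between day 5 and day 8 included several of the most abundant. *CG7630*, which RefSeq names *COX7B* after a subunit of cytochrome c oxidase, was at 7.18, 6.30, 4.60 and 3.48 UMIs per 10000 on days 4, 5, 8 and 14 (log2 ratio -1.05 ± 0.03, counting half-width). *CG11267*, listed under the synonym hsp10, a co-chaperonin of the mitochondrial chaperonin Hsp60, was at 6.84, 7.15, 4.77 and 3.71 (-0.88 ± 0.03). Both had made most of their fall by day 8. *CG1890*, or *Tbca*, a tubulin-folding cofactor, was at 5.01, 4.91, 3.34 and 2.60 (-0.95 ± 0.04). *CG9034*, or *NdufA3*, a subunit of respiratory complex I, was at 2.57, 2.32, 1.75 and 1.39 (-0.89 ± 0.05). *CG33170*, with no named product, was at 2.18, 1.90, 1.45 and 1.19 (-0.87 ± 0.06). Of these 5, only *CG9034* had steps before and after day 8 that counting error could not separate.

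The deepest falls in the same group were in genes of low level. *CG3746* was at 0.355, 0.285, 0.110 and 0.0716 per 10000 (-2.31 ± 0.23), and its step from day 5 to day 8 was -1.37 against -0.63 afterwards. *CG9399*, listed as dMPC2, a mitochondrial pyruvate carrier subunit, was at 0.184, 0.174, 0.0858 and 0.0652 (-1.50 ± 0.25). *CG13692* was at 0.414, 0.372, 0.198 and 0.149 (-1.47 ± 0.16). After day 8 the last pair lost only 0.40 and 0.41 on the log2 scale. *CG34213* followed at -1.40 ± 0.21 and *CG42813*, listed under the synonyms Mth1 and Nudix, names of hydrolases that clear altered nucleotides, at -1.36 ± 0.11. *CG42813* lost nearly as much after day 8 (-0.65) as before it (-0.73), a margin within counting error. *CG4186*, the single early member, was at 0.120, 0.0852, 0.0653 and 0.0613, and its steps of -0.49 and -0.38 were also not separable.

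The late group held 7 of the 8 members with a fall of 4-fold or more. *CG9572*, named *aspr* by RefSeq, showed the deepest fall of the 86. Its mean was 0.422, 0.359, 0.151 and 0.0473 per 10000 in the order of age. The log2 ratio was -3.16 ± 0.27, and its pooled level went from 0.462 (95% Poisson interval 0.448 to 0.476) to 0.0499 (0.0411 to 0.0600). *CG43103* was at 0.198, 0.207, 0.114 and 0.0363 (-2.45 ± 0.32), and it overlaps *Gbp2* on the other strand. *CG17108* was at 0.332, 0.464, 0.356 and 0.0665 (-2.32 ± 0.24). It was still above its day 4 level on day 8, and the step after that was -2.42, the steepest single step of any member. *CG42326* was at 0.258, 0.278, 0.133 and 0.0525 (-2.29 ± 0.26), with steps before and after day 8 that were not separable. *CG31373*, listed under the synonym PDF, an abbreviation of peptide deformylase, was at 0.205, 0.206, 0.165 and 0.0462 (-2.15 ± 0.29), with a step of -1.84 after day 8. The other 2 with a fall of 4-fold or more were *CG34446* (-2.12 ± 0.16) and *CG9515*.

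The most abundant late members fell less deeply. *CG10527*, listed as FAMeT, a name for farnesoic acid O-methyltransferase of juvenile hormone synthesis, was the highest of all members at every age with 14.96, 15.6, 10.6 and 6.09 per 10000 (-1.30 ± 0.03). *CG6543*, or *Echs1*, the enoyl-CoA hydratase of mitochondrial fatty acid and amino acid breakdown, was at 3.93, 4.68, 3.34 and 2.23 (-0.82 ± 0.04). It was highest on day 5, as was *CG10932*, or *Acat1*, a mitochondrial thiolase (1.95, 2.47, 1.51 and 0.808; -1.27 ± 0.07). *CG6180* was at 2.33, 2.41, 2.001 and 1.28 (-0.87 ± 0.06). *CG9338* was at 1.99, 1.94, 1.70 and 1.13 (-0.82 ± 0.06). *CG34200*, listed as Tom6, a small part of the import pore in the outer mitochondrial membrane, was at 1.99, 1.69, 1.37 and 1.09 (-0.87 ± 0.06), with steps of -0.30 and -0.33 that were not separable.

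The decline was mainly in the share of cells with a UMI, which for genes of low level moves with the mean. The median share of cells with a member's UMI was 48.2% on day 4 and 25.9% on day 14. After every cell was thinned to 10000 UMIs, which left out 152, 380, 0 and 0 cells in the order of age, it was 26.5% and 14.7%, and the thinned share was lower on day 14 for all 86. The median log2 ratio of the thinned share was -0.81, and that of the level in cells with a UMI was -0.12. The share changed more than the level in 69 members. The abundant ones were the exception, as nearly every cell kept them. *CG10527* had a UMI in 100% of cells on day 4 and 94.8% on day 14, and its level in those cells was 1.22 lower on the log2 scale. *CG17108* went the other way: its thinned share went from 16.2% to 1.89%, while the level in cells that still had a UMI was 0.89 higher. Unthinned, 2.97% of cells had its UMI on day 14, near the 2.53% for *twi* outside the myoblast-like cells. These cells held 152 UMIs of *CG17108*, and it was then at least 2-fold higher in a cluster led by *bnl* than in other cells. The part of background in this share was not tested.

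RefSeq matched all 86 symbols, all as protein-coding genes, and 15 now carry a name. With synonyms, 27 members could be given a role. Of these, 15 encode mitochondrial proteins, with a median log2 ratio of -1.05 against -0.97 for all 86. Mitochondrial genes were not counted among the other genes, so the 15 are not set against a background. *CG31373* is included only because its synonym PDF was read as peptide deformylase. Respiratory chain subunits and assembly factors were *CG7630* (*COX7B*), *CG9034* (*NdufA3*), *CG40472* (NDUFB2, -1.06), *CG11722* (dNDUFAF4, -0.83) and *CG13392* (dTMEM126B, -1.32). Enzymes were *CG8199* (*BckdhA*, -1.32) and *CG5599* (*Dbct*, -1.05) of branched-chain amino acid breakdown, *CG6543* (*Echs1*), *CG10932* (*Acat1*), *CG1665* (*Marc*, -0.91) and *CG31373*. Import, folding, transport and iron-sulfur cluster assembly were represented by *CG34200*, *CG11267*, *CG9399* and *CG14407* (*Grx5*, -1.03). Among the 15, 10 were higher on day 5 than on day 4, and the largest step came before day 8 in 8 and after it in 7. The other roles were nucleotide metabolism (3 members, median -0.84, among them *CG11089*, listed as atic, of purine synthesis), protein folding and RNA processing (4, median -1.03, among them *CG30343* or *Tsen15*, a tRNA splicing endonuclease subunit, and *CG18643* or *Dtd*, a deacylase of mischarged tRNA) and 5 others. The 59 members without a role had a median of -0.97.

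The members were spread over chromosome arms 2R (26), 3R (21), X (15), 3L (13) and 2L (11). In the annotation 41 overlap a gene on the other strand and 6 a gene on the same strand, and the sources used here do not state whether reads were counted by strand. *CG10340*, *CG11089*, *CG13319*, *CG15047*, *CG3902* and *CG9515* are the 6, and their counts are uncertain to that extent.

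Most members were found broadly, and a minority in particular clusters. On day 4, 21 of 86 were at least 2-fold higher in 1 cluster than in the other cells of the library, against 14.9% of all genes over the minimum. The count was 21 on day 5 (13.0% of all genes), 23 on day 8 (13.9%) and 27 on day 14 (12.1%). Of the 21 on day 4, 16 were members given no role here, as were 59 of all 86. Only 1 was among those given a mitochondrial role, *CG34200*, in a small cluster. The cluster that held the most members was led at every age by *CG12911*, itself an uncharacterised gene and not a member. It made up 15.1%, 14.9%, 17.4% and 16.0% of cells in the order of age, and it was high in *Mmp1*, at 5.90, 6.98, 2.56 and 1.82 UMIs per 10000 in the order of age against 0.414, 0.365, 0.327 and 0.759 in the other cells. In this clustering its share of cells was steady while its *Mmp1* level was lower on days 8 and 14. At resolution 1.0 the cluster led by *CG12911* held 9.41%, 10.8%, 3.90% and 6.58% of cells in the order of age. With 1000 variable genes the cluster with *CG12911* among its leading genes held 13.0%, 10.1%, 10.6% and 13.5%. The course of the share thus depends on the clustering. Its other leading genes changed with age, so it is matched across libraries by *CG12911* and not by a full profile. It was named disc-epithelium-like at the earlier ages and left unnamed on day 14, when only *Fas3* and *crb* of the epithelial markers were raised. Markers of other cell types were raised in it as well. The glial marker *moody* was at 0.850, 0.933, 0.545 and 0.631 per 10000 against 0.0979, 0.0980, 0.0739 and 0.173 in the other cells. From the same list of neuron and glia markers, *elav* and *nSyb* were not raised 2-fold in it at any age, and *repo* and *brp* were not listed. The notum markers *eyg* and *tup* were raised in it on days 4 and 5. Of the tracheal markers, *tnc* was at 0.396, 0.341, 0.0998 and 0.106 against 0.0119, 0.0124, 0.0170 and 0.231, and *btl* at 0.0378 and 0.0656 against 0.00407 and 0.00781 on days 8 and 14. The tracheal markers *trh* and *vvl* were lower in the cluster than outside it at every age. The part of these markers in the results was not tested. Its cells had more UMIs than the median cell of the library on day 4 (29722) and were close to it on day 14 (19261).

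Members at least 2-fold higher in this cluster than in the other cells numbered 12, 14, 17 and 16 of 86 in the order of age, against 8.41%, 9.54%, 8.18% and 4.64% of all genes over the minimum. The highest fold was that of *CG5835* on days 4 and 5 and of *CG42326* on days 8 and 14. *CG5835* was at 0.773, 0.932, 0.299 and 0.213 per 10000 inside the cluster, which was 19.8-fold, 22.4-fold, 8.78-fold and 4.54-fold above the other cells. On day 4 the cluster carried 85.4% of all its UMIs. *CG42326* was at 1.16, 1.38, 0.698 and 0.307 inside the cluster, or 10.9-fold to 30.02-fold above the other cells. In the other cells of day 4 *CG42326* was at 0.0971 and *CG5835* at 0.0296, below the minimum of 0.1. Both are thus members, and counted above, only through the cluster where they are high. *CG9572* was at 1.301, 1.36, 0.656 and 0.228, or 4.77-fold to 12.2-fold above. So the deepest fall among the members was of a gene concentrated in these cells, and it declined inside them as well. *CG1890* was at 14.8, 15.2, 7.99 and 4.75, with a fold that narrowed from 4.53 to 2.16. *CG10527* was at 28.8, 33.1, 24.3 and 13.5, with a fold between 2.304 and 3.14. *CG34325*, *CG9815*, *CG1635* and *CG10863* were also at least 2-fold higher in the cluster at every age, by up to 6.11-fold. *CG33170* was so on the first 3 ages, and *CG7054* and *CG30108* on days 4 and 5. Outside the cluster *CG1890*, *CG33170*, *CG7054* and *CG30108* did not reach a log2 ratio of -0.8, so they too are counted here only through it.

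**Figure D2:**
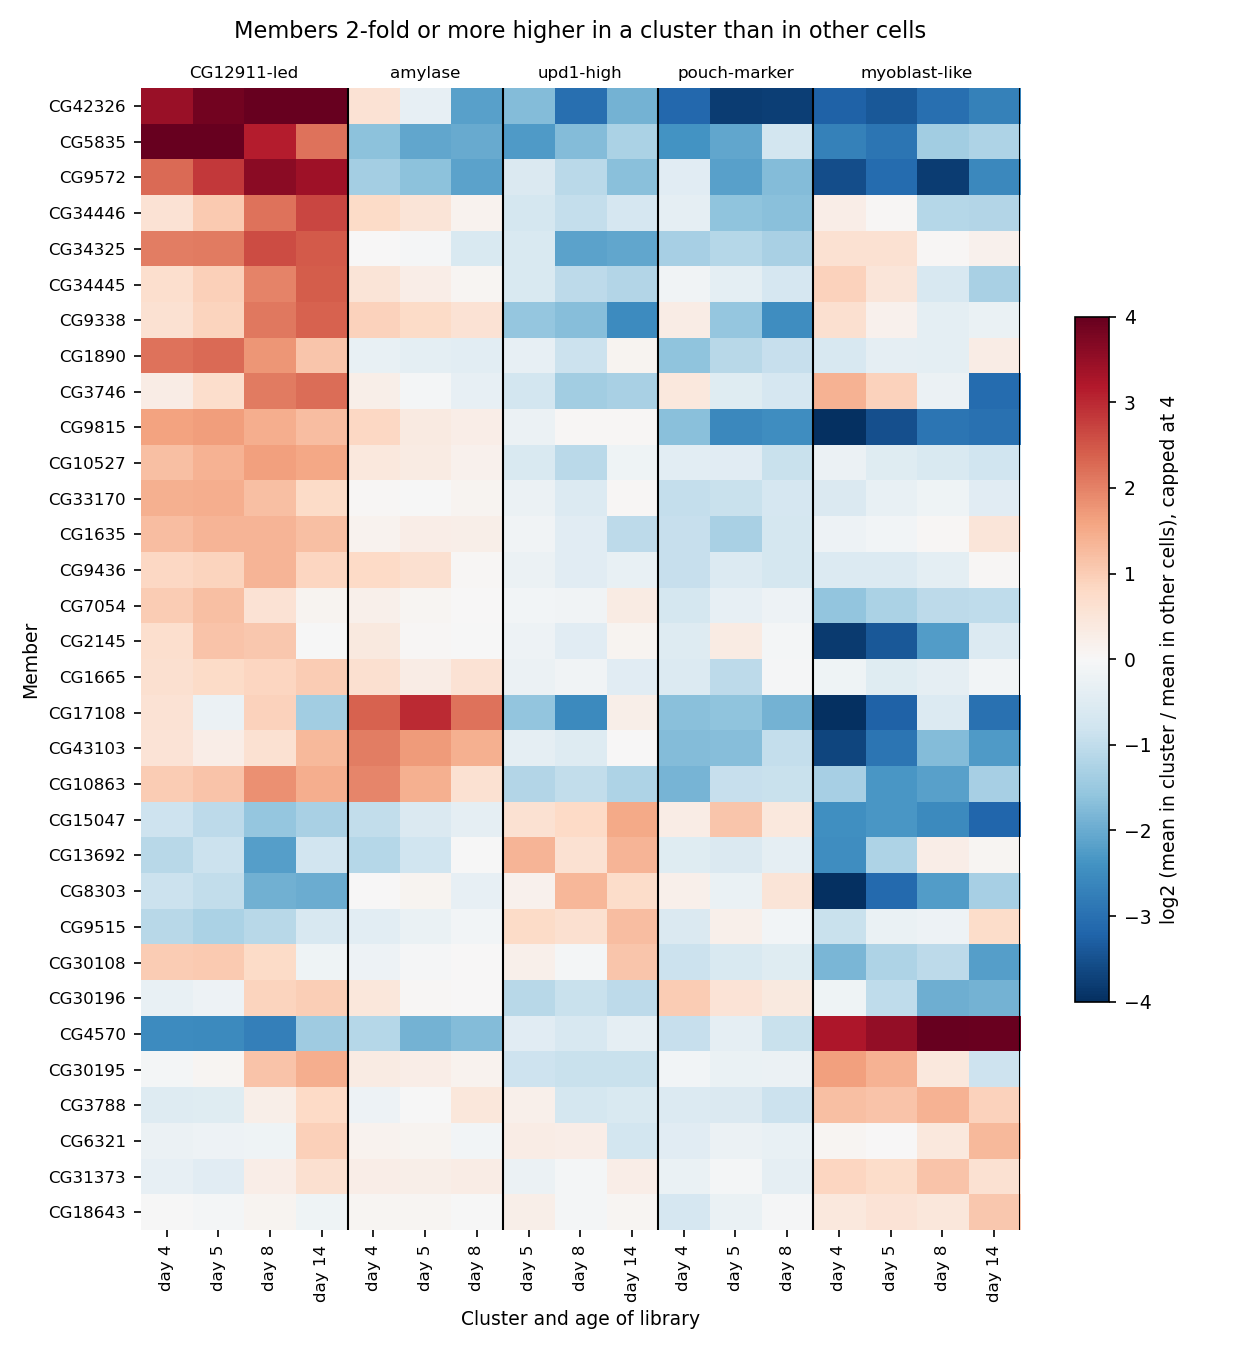
Log2 ratio of the mean level in a cluster over that in the other cells of the library (colour, capped at 4 in either direction), for the 32 members at least 2-fold higher in 1 of 5 named clusters at any age (rows) by cluster and age (columns; an age is left out where no cluster matched that gene or marker; upd1-high marks clusters with *upd1* among their 10 leading genes). The CG12911-led block holds most of the high values, and *CG34446*, *CG34445*, *CG9338* and *CG3746* grow stronger in it with age while *CG5835* and *CG1890* grow weaker.

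Inside and outside this cluster the members declined to a like degree in the middle but differed gene by gene. The median log2 ratio of day 14 over day 4 was -0.91 inside and -0.999 outside. Inside, 85 members were lower on day 14, of which 77 beyond counting error. Outside, 85 were lower, all of them beyond counting error. The difference between the 2 ratios was beyond counting error for 44 members, of which 28 fell further outside and 16 further inside. The members were chosen for a fall over all cells, so the counts of members lower on day 14 follow largely from the rule. No share over all genes was computed for any of these counts. *CG1890* had a log2 ratio of -1.64 ± 0.07 inside and -0.58 ± 0.05 outside, so that the cluster came closer to the other cells. *CG33170* (-1.36 inside, -0.70 outside), *CG7054* (-1.70 and -0.78) and *CG30108* (-1.80 and -0.58) followed the same course. Outside the cluster *CG1890* and these genes did not reach the log2 ratio of -0.8 that the rule asks. They are thus members only through the CG12911-led cells, and their further fall inside follows in part from the rule. *CG5835* was the extreme: its log2 ratio was -1.86 ± 0.34 inside and 0.40 ± 0.38 in all other cells, where it was at 0.0296 and 0.0392 per 10000 on days 4 and 14. The membership of *CG5835* likewise rests on the CG12911-led cells.

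The reverse course was taken by *CG42326*, *CG9572*, *CG9338* and a run of neighbouring genes. *CG42326* had a log2 ratio of -1.92 ± 0.27 inside the cluster and -4.62 ± 1.01 outside. For *CG9572* the ratios were -2.52 ± 0.31 and -4.36 ± 0.57. *CG9338* was at 2.80, 3.19, 4.66 and 3.50 per 10000 inside the cluster, a log2 ratio of 0.32 ± 0.09, against -1.45 ± 0.08 outside. It was the only member that was higher on day 14 inside the cluster, and its fold over the other cells went from 1.51 to 5.13.

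**Figure D3:**
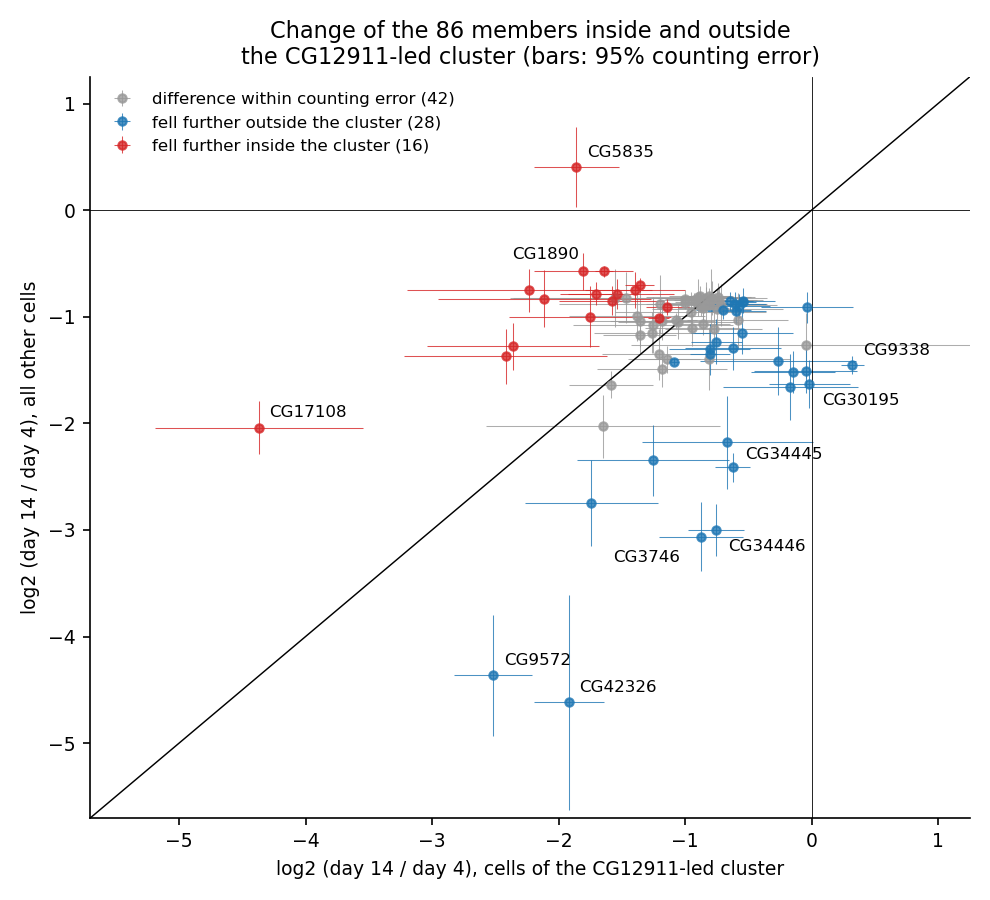
Log2 ratio of day 14 over day 4 for each of the 86 members in the cells of the CG12911-led cluster (x axis) and in all other cells (y axis), with 95% counting half-widths as bars and the diagonal of equal change. The 28 blue genes below the diagonal fell further outside the cluster, the 16 red ones above it fell further inside, and *CG5835* lies above 0 on the y axis.

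Neighbouring genes made up the clearest group of this kind. *CG30195*, *CG34446*, *CG34445* and *CG3746* lie next to one another on 2R, on the same strand and with no other gene between them in RefSeq, and *CG30196* follows after 2 more genes. All 5 are members and none has a named product. The gene next to the run on its other side, *CG2852*, was at 8.95, 10.1, 10.4 and 10.0 per 10000 (log2 ratio 0.16). Of the 2 genes between *CG3746* and *CG30196*, *Cyp6d2* was at 0.0482, 0.0793, 0.0941 and 0.111, and *nsr* was below 0.01 at every age. The fall was thus not shared by the adjoining genes that could be measured.

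On days 8 and 14 all 5 were highest in the CG12911-led cluster, whereas on day 4 *CG34445*, *CG3746* and *CG30195* were highest in myoblast-like cells. *CG34445* was then at 2.52 per 10000 there against 2.004 in the CG12911-led cluster and 1.18 in the remaining cells. In myoblast-like cells it was then at 1.81, 0.579 and 0.161 (log2 ratio of day 14 over day 4 -3.96 ± 0.76). In the CG12911-led cluster it was at 2.27, 2.32 and 1.30 (-0.62 ± 0.14), and in the remaining cells at 1.11, 0.572 and 0.238 (-2.31 ± 0.14). The CG12911-led cells thereby came to hold 51.9% of its UMIs on day 14, against 26.1% on day 4. *CG34446* was highest in the cluster already on day 4, at 0.831 against 0.714 in myoblast-like and 0.547 in the remaining cells. It had log2 ratios of -3.67 ± 1.28 in myoblast-like cells (5 UMIs on day 14), -0.76 ± 0.22 in the cluster and -2.96 ± 0.25 in the remaining cells.

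*CG3746* was at 0.893, 0.525 and 0.0937 per 10000 in myoblast-like cells on days 4, 5 and 8, and had 0 UMIs in the 42 myoblast-like cells of day 14. With a floor of 3 counts over those cells, 0.0376 per 10000, it was at least 23.8-fold lower than on day 4. Its log2 ratio was -0.88 ± 0.33 in the CG12911-led cluster and -2.87 ± 0.32 in the remaining cells. *CG30195* was at 0.8003, 0.770, 0.299 and 0.0624 in myoblast-like cells (-3.68 ± 1.17, 6 UMIs on day 14), and at 0.263, 0.333, 0.415 and 0.260 in the cluster (-0.02 ± 0.32). *CG30196* was at 0.293, 0.190, 0.0684 and 0.0312 in myoblast-like cells (3 UMIs on day 14; log2 ratio -3.23 ± 1.66) and at 0.271, 0.338, 0.461 and 0.244 in the cluster (-0.15 ± 0.33). On day 4 it was highest in the remaining cells, at 0.341. The log2 ratio of the 5 genes was thus between -0.88 and -0.02 in the CG12911-led cells and between -2.96 and -1.46 in the remaining cells. Across cells the neighbours correlated weakly to moderately, with a mean Pearson's r over the 4 libraries of 0.39 for *CG34446* and *CG34445*, 0.33 for *CG34445* and *CG3746* and 0.22 for *CG30195* and *CG34446*. It was 0.17 for *CG3746* and *CG30196*. Members within 10 kb of each other elsewhere had lower values, 0.10 for *CG11885* and *CG13692* and 0.06 for *CG6543* and *CG16935*. Members outside the run that were also high in the CG12911-led cluster had similar values with it. *CG34445* was at 0.39 with *CG10527*, 0.37 with *CG9338* and 0.34 with *CG42326*, and *CG34446* at 0.32 with both *CG10527* and *CG9338*. The correlation was thus not particular to neighbours. The median over all 3655 pairs of members was 0.03 to 0.04 in each library, and cells of 1 library share its depth and preparation.

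**Figure D4:**
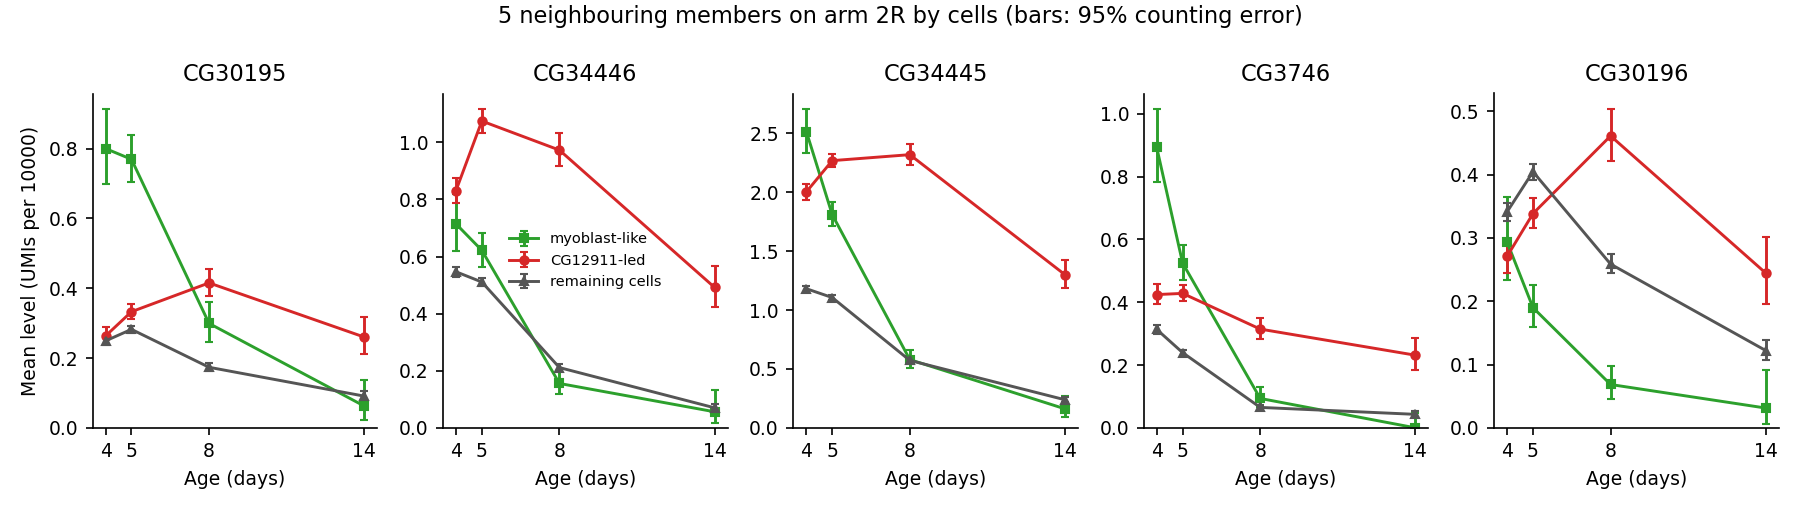
Mean level (UMIs per 10000, y axis from 0) against age in days for the 5 neighbouring members, in myoblast-like cells (green squares), the CG12911-led cluster (red circles) and the remaining cells (grey triangles), with 95% counting intervals. The green lines lie lowest on day 14 in all 5 genes, and the red lines lie above the others on days 8 and 14.

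A second small set marked cells rich in the amylase genes *Amy-p* and *Amy-d*, which encode starch-digesting enzymes. These cells made up 12.8%, 20.3% and 12.8% of cells on days 4, 5 and 8. On day 14 no cluster was led by an amylase gene, and the mean of *Amy-p* over all cells was 1.57, 1.96, 0.691 and 0.0271 per 10000. *CG17108* was at 1.14, 1.54 and 1.13 inside this cluster, which was 5.12-fold, 7.86-fold and 4.54-fold above the other cells. The cluster held 36.4%, 60.7% and 37.9% of its UMIs. Outside it *CG17108* was at 0.214, 0.188 and 0.242 on days 4, 5 and 8, and over all cells of day 14 it was at 0.0665. The day 14 level was therefore below that of both sets of cells on the earlier days. *CG43103* (4.13-fold, 3.27-fold and 2.67-fold) and *CG10863*, listed as AKR2E3, an aldo-keto reductase (3.84-fold, 2.68-fold and 1.52-fold), were higher in the same cells. *CG10863* was also raised in the CG12911-led cluster, by 2.04-fold, 2.21-fold, 3.58-fold and 2.74-fold in the order of age, and *CG43103* by 2.46-fold there on day 14. *CG43103* was at 0.139, 0.138 and 0.0921 outside the cluster and at 0.0363 on day 14, and *CG10863* at 0.165, 0.210, 0.229 and 0.104.

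Myoblast-like cells were high in few members and low in more. On day 4, 4 of 86 members were at least 2-fold higher there than in other cells, where 1.78% of all genes over the minimum were. These were *CG4570*, *CG30195*, *CG3746* and *CG3788*. Another 17 were at least 2-fold lower, where 9.78% of all genes were. *CG4570* was the most specific, at 0.825, 0.799, 0.909 and 0.558 per 10000 in myoblast-like cells and 0.0795, 0.0608, 0.0402 and 0.0270 in other cells. It was thus 9.32-fold to 18.3-fold higher at every age, and its log2 ratio was -0.56 ± 0.47 in myoblast-like and -1.56 ± 0.38 in other cells. On day 4 it had a UMI in 63.6% of myoblast-like and 12.3% of other cells. Its day 4 level in other cells was below the minimum of 0.1. It is thus a member, and counted among the 4, only through the myoblast-like cells where it is high. *CG3788*, which overlaps *ReepA* on the other strand, was at 0.327, 0.342, 0.306 and 0.109 in myoblast-like and 0.137, 0.149, 0.110 and 0.0531 in other cells.

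*CG8303*, *CG9815* and *CG2145* had 0 UMIs in the 162 myoblast-like cells of day 4. With a floor of 3 counts, 0.0106 per 10000, the other cells were at least 18.7-fold, 14.5-fold and 12.5-fold higher. *CG17108* (3 UMIs) and *CG43103* (2 UMIs) were nearly as low there. Of the 77 members with UMIs in myoblast-like cells on both day 4 and day 14, 71 were lower on day 14, 37 of them beyond counting error, with a median log2 ratio of -0.64. Another 7 had 0 UMIs on day 14. Among the 6 that were higher, only *CG13692* was so beyond counting error, and it rested on 17 and 12 UMIs. Outside the myoblast-like cells all 86 were lower on day 14, with a median of -0.998. Those cells made up most of each library, so the rule nearly fixes that count. No share over all genes was computed for the counts of members lower on day 14 in either set of cells.

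A last set was highest, at 1 age or more, in clusters with *upd1*, which encodes a JAK/STAT ligand, among their leading genes. These were led by *vn* on day 5, by *upd1* on day 8 and by SteXh:CG42398 on day 14. *CG13692* was at 0.762, 0.281 and 0.295 per 10000 in these on days 5, 8 and 14, which was 2.58-fold, 1.54-fold and 2.57-fold above the other cells. On day 4 *upd1* was not among the leading genes of any cluster. It was then most raised in the CG12911-led one, at 0.559 per 10000 against 0.159 in the other cells. *CG13692* was 2.43-fold higher on day 4 in a cluster led by *ap*. *CG15047* (2.84-fold), *CG9515* (2.37-fold) and *CG30108* (2.14-fold) were highest in the *upd1* clusters on day 14, and *CG8303* (2.48-fold) on day 8. Elsewhere, *CG15047* was highest in a cluster led by *CR44334* on day 5 (2.17-fold), and *CG8303* in one led by *bnl* on day 14. *CG30196* was 2.01-fold higher in a cluster with pouch markers on day 4, and 1.47-fold and 1.31-fold higher in such clusters on days 5 and 8. On day 5 it was higher still, by 1.88-fold, in a cluster led by *Lcp65Ag3*, in which *vg* and *Dll* were also raised.

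Across single cells the members sorted along the same lines. With *Mmp1* the highest mean Pearson's r over the 4 libraries was that of *CG1890* (0.58; 0.67, 0.68, 0.56 and 0.39 in the order of age), followed by *CG5835* (0.52), *CG10527* (0.46) and *CG34325* (0.42). All 4 were lowest on day 14. The same genes were low in cells with much cell cycle RNA: with the summed G2/M genes r was -0.43 for *CG1890* and -0.42 for *CG10527*, and with the summed S phase genes it was -0.28 and -0.41. *CG11267* lay at the other end, with 0.27 for G2/M genes, 0.28 for S phase genes and -0.16 for *Mmp1*. *CG8891* (0.28), *CG2277* or *Nt5a* (0.27) and *CG6543* (0.23) were next for S phase. The strongest pair of members was *CG10527* and *CG1890* (0.52). A separate set of pairs joined *CG11267* with *CG34132*, *CG9922* and *CG7630* (0.39 each). *CG11267* itself was at most 1.60-fold above the other cells in any cluster. Of 3655 pairs, 131 had a mean r of 0.2 or more. The r values describe cells of 1 library at a time and were not tested.

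The threshold on the log2 ratio cut through a continuum. *CG8891* (-0.81), *CG14270* (-0.80) and *CG13319* (-0.80) were just inside it, and *CG12288* (-0.80), *CG14483* (-0.79) and *CG11523* (-0.79) just outside. The interval of the log2 ratio lay wholly below -0.8 for 54 members. At the minimum level, *CG6321* (0.102), *CG31125* (0.109) and *CG4570* (0.111) were inside and *CG43295* (0.0978), *CG31278* (0.0978) and *CG7296* (0.0964) outside. A further 5 genes passed everything but the order of ages, led by *CG4267* at -1.61.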

How the data were processed

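Single-cell RNA libraries of *scrib* mutant wing discs, 1 for each of 4 ages, were grouped by labelled age. The authors counted UMIs with Cell Ranger and normalised them with Seurat's LogNormalize, so each deposited value is a natural log, of 1 plus UMIs per 10000 of the cell. The software versions, genome build and cell filters are not stated in the sources used here. The lowest UMI count of a deposited cell was 7747, 8447, 12859 and 14609 in the order of age. The most genes in a cell was 3998, 3996, 3995 and 3988. Cells of low depth were thus present on days 4 and 5 only, and the part of this in the results was not tested beyond thinning. In every cell the values were whole multiples of the lowest one (100% within 0.001), which returned the UMIs. Library totals were 91045765, 134888985, 62338564 and 22458962 UMIs in the order of age. A gene absent from a file counted as unlisted, not as 0.

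Levels were UMIs per 10000 averaged over cells, and a change was the log2 ratio of such means. Intervals at 95% (exact Poisson for UMI sums, normal approximation on UMI sums for log2 ratios) cover counting error only. With 1 library per age no p-value was computed. The log2 ratio and its half-width were tested on simulated data. Cells were clustered in each library on 2000 variable genes without the members (30 components, 15 neighbours, Leiden at resolution 0.5; scanpy 1.11.5, igraph 0.11.9, numpy 2.4.6, scipy 1.17.1, pandas 2.3.3, python 3.11.15). Clusters were named from marker lists: myoblast-like with at least 3 myoblast markers 2-fold up and more of them than of any other type among the 10 leading genes. Disc-epithelium-like took at least 3 epithelial markers 2-fold above the myoblast-like cells, leading genes in which no other type had more markers than the epithelium, fewer than 3 tracheal markers raised, and a median UMI count of at least that of the library divided by 3. Other clusters stayed unnamed. No doublet caller was run. Ratios between cells used a pseudocount of 0.01 per 10000. Names came from RefSeq (Release 6 plus ISO1 MT) and overlaps from Ensembl BDGP6; coordinates are not given, since the build of the files is not known. Values are shown for members with the highest level or deepest fall in each time group, the extremes between myoblast-like and other cells, those with UMIs in the fewest cells, neighbours in the genome, and genes at the thresholds. The members and lists were chosen with earlier results of these data known. Alternatives were other thresholds, scalings, sets of cells and clusterings. No sequences were used here.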

Additional observations from a re-analysis of the deposited data

Results flagged for a closer look

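*CG13692* was singled out because it moved in opposite directions in 2 kinds of cells. In myoblast-like cells day 14 over day 4 gave a log2 ratio of 1.21 ± 1.07 (17 UMIs in 162 cells and 12 in 42), and in the other cells it was -1.52 ± 0.16. Its level in myoblast-like cells was 0.0681, 0.160, 0.235 and 0.157 per 10000 in the order of age, so it was highest on day 8. The difference between the groups was not tested, since each age was 1 library.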

How the results depend on the processing

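The number of members followed the threshold and the scale. It was 197 at a log2 ratio of -0.5 or less, 42 at -1 or less, 163 with ribosomal protein genes removed from the scaling and 3 when mean log values were compared, and between 66 and 107 under the other 4 alternatives. The median log2 ratio of -0.97 was -1.15 without ribosomal protein genes, -1.19 in disc-epithelium-like cells, -0.49 for day 8 over day 5 and -1.22 relative to the median gene. It moved by less than the members' median counting error with pooled UMIs, thinned cells, without myoblast-like cells or without the CG12911-led cluster, an alternative chosen after seeing the data. Per day, the largest step came from day 4 to day 5 in 18 members (1 otherwise) and from day 8 to day 14 in 14 (40 otherwise). At 3-fold, 2 members were higher in myoblast-like cells, in place of 4 at 2-fold. Of the 29 members whose ratio was recomputed, *CG5835* alone changed sign, with 0.40 outside the CG12911-led cluster, which held 85.4% of its UMIs on day 4. The ratio moved beyond counting error in 7 with pooled UMIs, 16 without ribosomal protein genes, 19 in disc-epithelium-like cells, 1 without myoblast-like cells and 12 without the CG12911-led cluster. The disc-epithelium-like class lacks the CG12911-led cluster (16.0% of cells) on day 14 only, which bears on its values. On day 14 it also lacks the clusters led by SteXh:CG42398 (21.9% of cells) and *CG2444* (4.14%). The parts of these clusters in the change of the ratios were not separated. No paired analysis was possible because the groups hold 1 library each. With 65 UMIs in the least counted member on day 14, differences below its half-width are not detectable.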

Other observations

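Branched-chain amino acid breakdown was looked at more widely because 4 of its enzymes with a RefSeq name were members, a choice made after their values were seen. Genes without such a name were not looked at. Among 9 genes that RefSeq names for this route, *BckdhA* (-1.32 ± 0.21), *Acat1* (-1.27 ± 0.07), *Dbct* (-1.05 ± 0.18) and *Echs1* (-0.82 ± 0.04) were members by the log2 ratio of day 14 over day 4. The other 5 changed less: *Mccc1* was at 0.453, 0.584, 0.428 and 0.356 per 10000 in the order of age (-0.35 ± 0.11), *Bcat* was at 0.160 and 0.140 on days 4 and 14 (-0.19 ± 0.18), and *BckdhB*, whose product pairs with that of *BckdhA* in 1 enzyme, was at 1.54 and 1.36 (-0.18 ± 0.06). *Hibch* (0.03 ± 0.08) was level within counting error, and *Mccc2* was higher on day 14 (0.35 ± 0.17). The 9 named genes of the route thus did not share 1 direction.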
